A study of Mus musculus with 18 samples.

Results

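The AP-1 family genes of the mouse aorta were read in 18 bulk RNA-seq libraries of *Tspan2* promoter mutants and their wild-type controls. The family consisted of 8 genes, *Fos*, *Fosb*, *Fosl1*, *Fosl2*, *Jun*, *Junb*, *Jund* and *Atf3*, of 55453 gene symbols in each count table, and all 8 were found by symbol in both tables. The 8 genes were selected from genotype contrasts of these same libraries, whose results were already known, so each genotype difference below is given as a description. In the HDR experiment, Cas9, an sgRNA and a repair template had replaced 3 bases of a CArG box, the sequence bound by serum response factor, in the *Tspan2* promoter, and aortae of 5 wild-type and 5 *sg/sg* mice of 12 weeks were sequenced, each group with 3 females and 2 males, labelled C57BL/6. In the PE2 experiment, prime editor 2 and a pegRNA had changed 1 base of the same box, and aortae of 4 wild-type mice (3 females and 1 male) and 4 *peg/peg* mice (4 females) of 8 weeks were sequenced, labelled FVB/N/B6(Cg)-Tyrc-2J/J. Both edits were germline, so that every cell of a mutant carried them, and the lines were bred from founder mice chosen for the edit.

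AP-1 is a dimeric transcription factor. A Fos protein (*Fos*, *Fosb*, *Fosl1*, *Fosl2*) pairs with a Jun protein (*Jun*, *Junb*, *Jund*) through a leucine zipper, Jun proteins can also pair with each other, and the stress-responsive *Atf3* product joins the same network. Several of these genes are immediate early genes, which serum, growth factors, injury or the handling of a tissue switch on quickly and without new protein synthesis, and in the vessel wall they are known for their response to injury and stretch. *Jund* and *Fosl2* are generally the steadier members.

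Immediate early promoters are known for sites of the CREB/ATF factors, whose core is TGACG, and the windows of *Fos*, *Fosb*, *Junb*, *Atf3* and *Jun* are shown because they are the ones that held a form of it. The RefSeq promoter table (GRCm38.p6) held 7 of the 8 members, and the 250 bases before each annotated start were searched on both strands for TGACG, for the 8-letter form TGACNTCA, for the AP-1 site TGANTCA, for TATAAA and for the CArG box. Capitals mark TGACG (or CGTCA, its reverse complement), TGACNTCA and TATAAA. TGACNTCA and TGACG overlap where N is G.
Fos, chr12:85473640-85473889, plus strand: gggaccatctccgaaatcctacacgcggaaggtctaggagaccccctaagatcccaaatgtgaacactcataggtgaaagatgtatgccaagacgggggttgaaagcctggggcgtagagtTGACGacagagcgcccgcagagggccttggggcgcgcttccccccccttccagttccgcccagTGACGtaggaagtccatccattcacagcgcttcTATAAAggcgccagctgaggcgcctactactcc
Fosb, chr7:19310046-19310295, minus strand: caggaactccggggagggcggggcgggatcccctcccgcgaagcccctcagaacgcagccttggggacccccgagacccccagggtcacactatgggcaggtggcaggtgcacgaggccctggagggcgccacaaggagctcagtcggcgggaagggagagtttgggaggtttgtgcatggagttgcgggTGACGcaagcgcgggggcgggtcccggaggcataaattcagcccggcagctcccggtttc
Junb, chr8:84978749-84978998, minus strand: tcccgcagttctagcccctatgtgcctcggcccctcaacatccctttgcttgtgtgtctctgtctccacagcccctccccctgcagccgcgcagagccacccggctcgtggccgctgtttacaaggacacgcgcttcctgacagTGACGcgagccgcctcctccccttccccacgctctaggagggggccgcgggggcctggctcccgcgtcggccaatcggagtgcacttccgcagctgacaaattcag
Atf3, chr1:191183334-191183583, minus strand: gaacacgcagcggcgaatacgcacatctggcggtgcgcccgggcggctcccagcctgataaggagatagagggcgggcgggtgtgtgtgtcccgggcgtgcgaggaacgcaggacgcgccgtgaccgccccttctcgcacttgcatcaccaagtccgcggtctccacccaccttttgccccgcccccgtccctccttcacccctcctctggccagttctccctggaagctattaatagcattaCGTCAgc
Jun, chr4:95052223-95052472, minus strand: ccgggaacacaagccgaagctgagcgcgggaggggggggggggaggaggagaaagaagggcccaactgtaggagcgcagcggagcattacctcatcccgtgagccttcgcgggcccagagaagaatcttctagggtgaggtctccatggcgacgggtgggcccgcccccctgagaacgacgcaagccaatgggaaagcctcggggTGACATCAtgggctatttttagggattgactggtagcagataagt

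TGACG stood in 4 of the 7 windows (*Fos*, *Fosb*, *Junb* and *Atf3*), against 17.8% of all 32851 promoter windows of the same length. The *Fos* window held it at 66 and 129 bases before the start and TATAAA (12.4% of all windows) at 33 bases, and the *Fosb* and *Junb* windows held it at 60 and 106 bases. In *Atf3* it lay 7 bases before a start that is 34706 bases inside the Gencode gene, so this window belongs to an internal start. The *Jun* window held the form TGACATCA at 45 bases, and TGACNTCA was in 7.49% of all windows. TGANTCA was in 0 of the 7 windows (6.75% of all windows) and the CArG box in 0 of 7 (1.47% of all windows), which says only that these letters are not in these 250 bases. Among 30 other immediate early genes with a window, TGACG was in 23 of 38 windows (60.5%). Neither the *Fosl2* nor the *Jund* window held any of these motifs, and their RefSeq starts lie 671 and 1210 bases from the Gencode starts.

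HDR libraries held 17290992 to 24880385 counts and PE2 libraries 38820265 to 44895615. The targeted gene followed the labels, since *Tspan2*, a tetraspanin of smooth muscle, was at 112 to 265 CPM in HDR wild-type and 16.0 to 36.6 CPM in *sg/sg* aortae, and at 186 to 284 CPM in PE2 wild-type and 11.9 to 25.5 CPM in *peg/peg* aortae. CPM, the usual depth-scaled read count, were computed here with TMM factors within an experiment. Smooth muscle markers were high in every library (summed level 15982 to 58080 CPM). *Peg/peg* aorta 3 stood apart, with the lowest fat markers (118 CPM summed over 6 genes against 695 to 3372 CPM in the other PE2 aortae), the highest summed skeletal (1134 CPM) and cardiac (522 CPM) muscle markers and 3.70% mitochondrial counts. In PE2 libraries the skeletal list reached 756 CPM for *Acta1*, 300 CPM for *Ckm* and 74.2 CPM for *Tnnt3*. Its other genes, *Myh4*, *Myh1*, *Atp2a1* and *Mylpf*, reached at most 0.988, 1.65, 1.30 and 2.57 CPM in any PE2 library. In the HDR table, 4 libraries (wild-type and *sg/sg* 5 and 6) held 179 to 234 CPM of the Y-linked *Ddx3y* and the other 6 held 0. The HDR columns are numbered 2 to 6 and the labels 1 to 5, so that these columns could not be tied to single labelled mice. In bulk tissue, fewer cells of a type and less RNA per cell cannot be told apart.

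The levels of the members within wild-type aorta were compared per length, as CPM per kilobase of exon. *Jund* and *Jun* led in every group, *Fosb* and *Fosl1* came last, and the members between changed places. In PE2 wild-type aortae *Jund* stood at 82.7 ± 16.4 CPM per kb (SD, n = 4), above *Jun* at 31.7 ± 7.33 (n = 4), and these ranges did not overlap. *Jun* did not overlap *Junb* at 10.6 ± 2.83 CPM per kb. *Junb*, *Fos* (9.02 ± 7.17), *Atf3* (5.82 ± 3.82) and *Fosl2* (5.03 ± 1.19) overlapped from one to the next. In HDR wild-type aortae *Jund* (37.0 ± 13.1 CPM per kb, n = 5) and *Jun* (35.1 ± 15.1) overlapped each other, as did *Jun* and *Fos* (23.7 ± 18.4). *Fosl2* (9.77 ± 3.36) was above *Fosb* (2.14 ± 1.11) in 5 of 5 HDR wild-type aortae without overlap, and *Fosl1* (0.0934 ± 0.0635) was below both. With the coding length in place of the exons, *Jun* came first in HDR wild-type, *sg/sg* and *peg/peg* aortae and *Fosl2*, whose exons are mostly untranslated, came second in both HDR groups, and with the longest transcript *Fos* came first in *sg/sg* aortae, so the order depends on the length used.

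**Figure D1:**
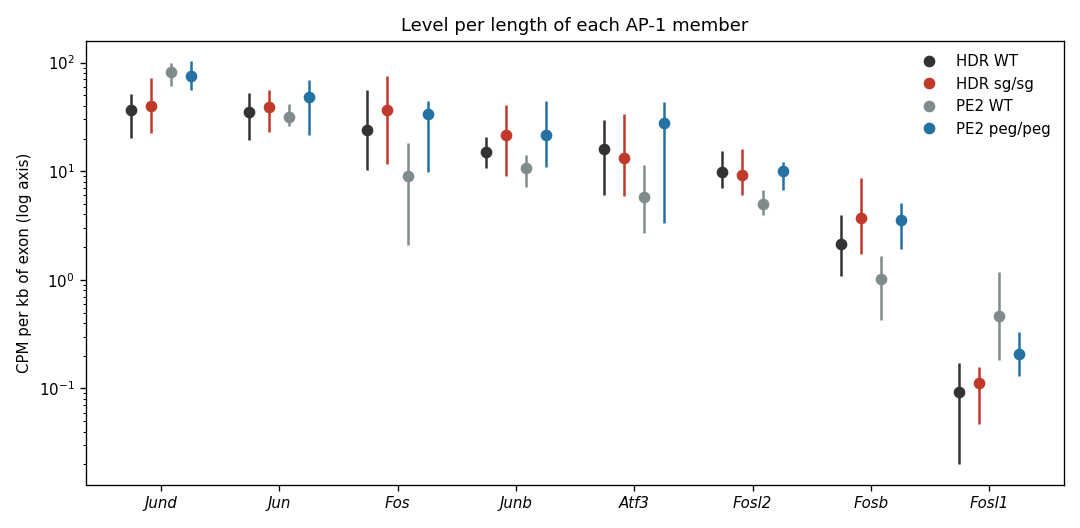
Level per length of the 8 members in the 4 groups. The vertical log axis gives CPM per kilobase of exon, points are group means, and lines run from the lowest to the highest library of 5 (HDR) or 4 (PE2), the HDR wild-type library with no *Fosl1* read being drawn at the foot of its line. *Jund* in PE2 aortae and *Fosl1* in all groups mark the ends of the scale.

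Summed per length, the Jun genes exceeded the Fos genes in every one of the 18 libraries. The ratio of the 3 Jun to the 4 Fos genes was 1.87, 3.21, 3.06, 1.78 and 3.40 in HDR wild-type aortae 2 to 6, and 2.19, 2.90, 2.69, 1.55 and 2.01 in *sg/sg* aortae 2 to 6. The 2 genotypes overlapped. In PE2 wild-type aortae 1 to 4 the ratio was 3.68, 12.3, 8.74 and 17.6, and in *peg/peg* aortae it was 2.36, 2.48, 5.56 and 3.37. *Peg/peg* aorta 3 was the one whose ratio exceeded that of PE2 wild-type aorta 1, and the other *peg/peg* aortae were below all PE2 wild types. *Fos* made up 31.5 to 66.6% of the Fos-gene sum in PE2 wild-type and 45.4 to 78.2% in *peg/peg* aortae.

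Of the 4 Fos genes in the PE2 experiment, 3 had a higher mean in *peg/peg* aortae and *Fosl1* a lower one. *Fos*, the prototype immediate early gene (ENSMUSG00000021250, chr12:85473890-85477273, plus strand), was at 43.2, 11.7, 25.1 and 4.93 CPM in PE2 wild-type aortae 1 to 4 and at 105, 88.8, 23.3 and 102 CPM in *peg/peg* aortae 1 to 4. *Peg/peg* aortae 1, 2 and 4 were above every wild type, and aorta 3 lay within the wild-type range. The *Fos* log2 difference was 1.91 (SE 0.70), a fold of 3.77. *Fosb*, a close relative of *Fos* (chr7:19302696-19310051, minus strand), was at 8.10, 4.31, 10.3 and 2.65 CPM in wild-type and at 29.3, 16.2, 11.9 and 31.5 CPM in *peg/peg* aortae, so that all 4 mutants were above all 4 wild types. Its log2 difference was 1.81 (SE 0.48). The *Fosl2* gene (chr5:32135801-32157842, plus strand), which encodes Fra-2, was at 64.9, 43.4, 48.4 and 38.2 CPM in wild-type and at 116, 110, 95.9 and 65.5 CPM in *peg/peg* aortae. These groups did not overlap either, although the lowest mutant exceeded the highest wild type narrowly, and the log2 difference of 0.99 (SE 0.22) had the smallest error of the 4 Fos genes. *Fosl1*, which encodes Fra-1 (chr19:5447547-5455946, plus strand), went the other way, with 2.42, 0.601, 0.375 and 0.392 CPM in wild-type and 0.315, 0.433, 0.264 and 0.678 CPM in *peg/peg* aortae. It rested on 12 to 95 counts per library, and wild-type aorta 1 held 95 of the 152 wild-type counts, without which the log2 difference of -1.16 (SE 0.69) was -0.12.

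The Jun genes and *Atf3* divided in *peg/peg* aorta 3. *Jun* (chr4:95049034-95052222, minus strand), the partner of *Fos* in the classical dimer, was at 83.7, 101, 134 and 85.2 CPM in PE2 wild-type and 193, 136, 68.3 and 220 CPM in *peg/peg* aortae. Aorta 3 was below all wild types and the other mutants were above them, with a log2 difference of 0.61 (SE 0.34). *Junb*, often a weaker activator than *Jun* (chr8:84974484-84978718, minus strand), was at 32.3, 16.5, 25.7 and 23.2 CPM in wild-type and 25.1, 35.3, 103 and 33.5 CPM in *peg/peg* aortae. Here aorta 3 was the highest, the log2 difference was 1.01 (SE 0.45), and without that library it was 0.35. *Jund* (chr8:70698949-70700616, plus strand), the member that resting cells generally hold, was at 102, 149, 166 and 135 CPM in wild-type and 123, 118, 92.6 and 173 CPM in *peg/peg* aortae, which overlapped, with a log2 difference of -0.12 (SE 0.22). The antisense gene *Gm11175* lies across *Jund* and had 200 counts against 43570 of *Jund* in the PE2 libraries, and the strand setting of the counting is not given in the sources used here. *Atf3* (chr1:191170296-191218039, minus strand), which many stresses induce, had the largest log2 difference of the 8, 2.26 (SE 0.76). It was at 9.40, 10.5, 24.5 and 5.76 CPM in wild-type and 89.8, 48.4, 7.25 and 94.4 CPM in *peg/peg* aortae, so aorta 3 lay within the wild-type range and the other mutants above it.

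**Figure D2:**
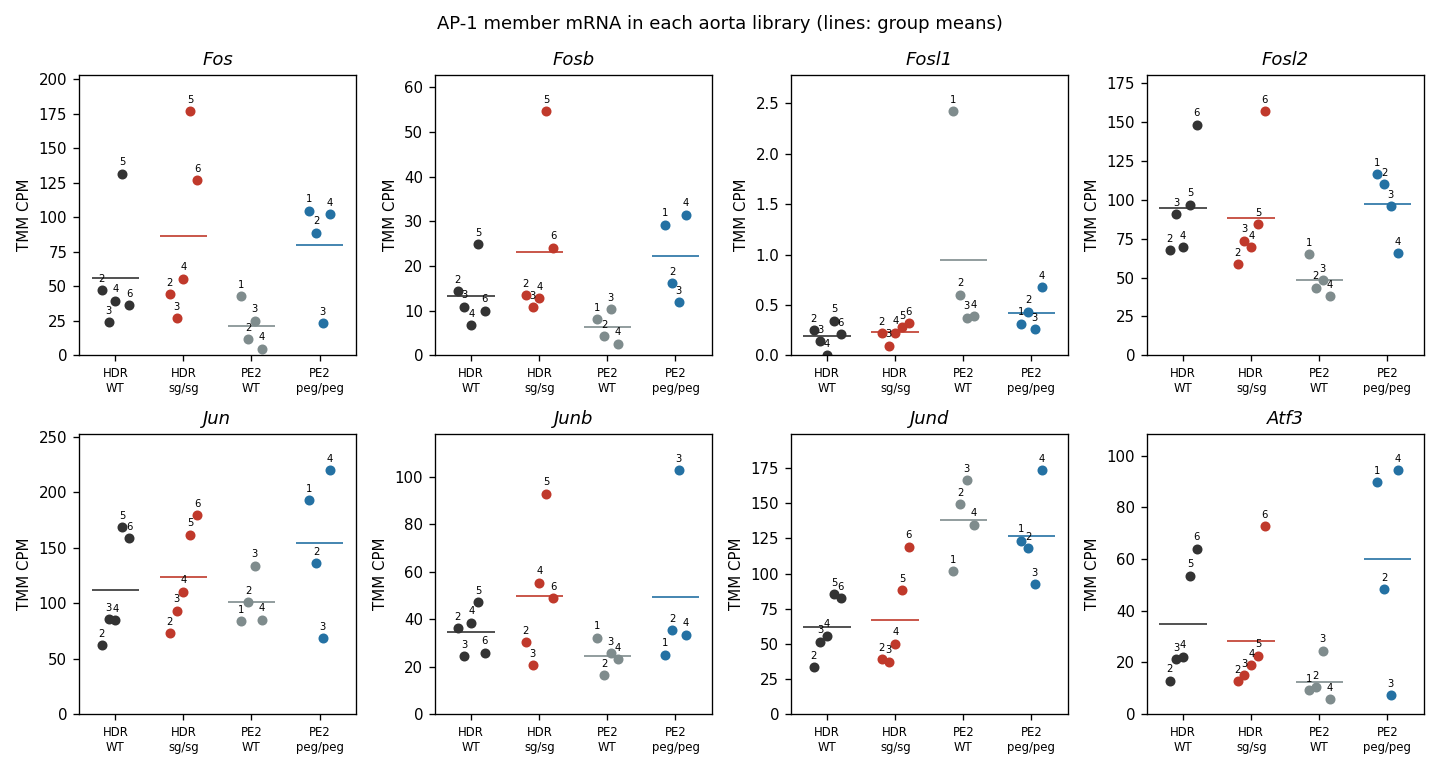
TMM CPM (vertical axes, linear from 0) of each member in every library, by group, with the library number above each point and the group mean as a line. The *peg/peg* points of *Fosb* and *Fosl2* lie above all PE2 wild-type points, *peg/peg* library 3 is low in *Fos*, *Jun* and *Atf3* and highest in *Junb*, and the HDR groups overlap in every panel.

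Fitted over all genes and adjusted by Benjamini-Hochberg, the edgeR quasi-likelihood test called 0 of the 8 members in the PE2 experiment (adjusted p = 0.861 for *Fosl2*, *Fosb*, *Atf3* and *Fos*), beside 0.0061% of the 16401 genes tested, which was *Tspan2* alone. Without adjustment, 4 of 8 had an edgeR p under 0.05 (*Fosl2*, *Fosb*, *Atf3* and *Fos*, all higher in *peg/peg*), beside 4.3% of all genes. DESeq2 called 1 of 8, *Fosl2* (adjusted p = 0.0496), beside 0.189% of 17479 genes. Groups without overlap were seen for 2 of 8 members, beside 2.54% of all genes. As the members were chosen from this contrast, nothing is read from these shares. With *peg/peg* aorta 3 left out, a setting added after its values were seen, DESeq2 called *Fosb*, *Fosl2*, *Jun* and *Atf3*, and edgeR still called 0. No share of all genes is set beside that count, so nothing is read from it. With the female libraries alone the edgeR log2 differences were 1.58 (SE 0.62) for *Fos*, 1.55 (SE 0.45) for *Fosb*, 0.89 (SE 0.23) for *Fosl2* and 2.01 (SE 0.83) for *Atf3*.

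In the HDR experiment the genotypes overlapped for every member. *Fos* was at 47.4, 23.9, 39.7, 132 and 36.2 CPM in wild-type aortae 2 to 6 and at 44.4, 27.2, 55.5, 177 and 127 CPM in *sg/sg* aortae 2 to 6. The highest library of each genotype was number 5, the groups overlapped, and the log2 difference of 0.63 (SE 0.55) was 0.19 without *sg/sg* aorta 5 and 1.222 without wild-type aorta 5. *Fosb* was at 14.4, 10.9, 6.79, 24.8 and 10.02 CPM in wild-type and 13.5, 10.8, 12.8, 54.6 and 24.1 CPM in *sg/sg* aortae, with a log2 difference of 0.79 (SE 0.47) that was 0.19 without *sg/sg* aorta 5. *Junb* was at 36.1, 24.5, 38.6, 47.3 and 26.0 CPM in wild-type and 30.3, 20.6, 55.4, 92.9 and 49.0 CPM in *sg/sg* aortae (log2 difference 0.53, SE 0.35). For *Fosb* and *Junb*, too, library 5 was the highest in both genotypes.

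*Jun*, *Jund*, *Fosl2* and *Atf3* were closer to equal. *Jun* was at 62.4, 85.8, 84.7, 169 and 158 CPM in HDR wild-type and 73.2, 93.5, 110, 162 and 179 CPM in *sg/sg* aortae (log2 difference 0.14, SE 0.31). *Atf3* was at 13.0, 21.3, 22.3, 53.6 and 64.0 CPM in wild-type and 12.7, 15.1, 18.9, 22.6 and 72.7 CPM in *sg/sg* aortae, with a log2 difference of -0.30 (SE 0.54), which was -1.01 without *sg/sg* aorta 6. *Jund* ranged from 33.6 to 85.2 CPM in wild-type and from 37.3 to 119 CPM in *sg/sg* aortae (log2 difference 0.11, SE 0.35), and *Fosl2* from 67.7 to 148 and from 58.7 to 157 CPM (log2 difference -0.10, SE 0.28). *Fosl1*, with 0 to 7 counts per library, did not pass the filter on low counts, so that 7 of the 8 members were tested. The groups of no member were free of overlap, beside 0.317% of all genes. EdgeR called 0 of 7, beside 0.00609% of 16423 genes, and 0 of 7 had an unadjusted p under 0.05, beside 1.98% of genes. DESeq2 called 0 as well.

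**Figure D3:**
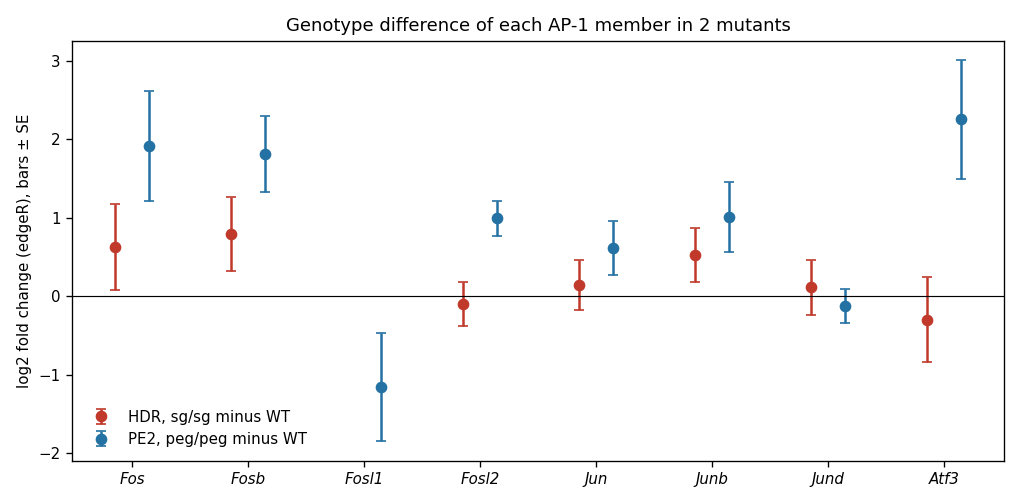
Log2 fold change of each member between mutant and wild type from edgeR (vertical axis) with bars of 1 SE, HDR in red and PE2 in blue. *Fos*, *Fosb*, *Fosl2*, *Jun*, *Junb* and *Atf3* have the higher values in PE2, from 0.61 to 2.26, and *Jund* has the lower one. *Fosl1* has no HDR point because it did not pass the filter.

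Libraries of one HDR genotype differed along the Y-linked reads. In the 4 libraries with *Ddx3y* reads *Jun* was at 158 to 179 CPM, against 62.4 to 110 CPM in the other 6. *Jund* was at 82.3 to 119 CPM against 33.6 to 55.9 CPM, and *Atf3* at 22.6 to 72.7 CPM against 12.7 to 22.3 CPM. These ranges did not overlap, narrowly so for *Atf3* (22.6 against 22.3 CPM), while those of *Fos* (36.2 to 177 against 23.9 to 55.5 CPM), *Fosb*, *Fosl2* and *Junb* did. The share of all genes whose ranges part along the same split was not computed, so nothing is read about the members from this. The summed level of 7 heat shock genes was 1061 to 2732 CPM in the 4 libraries and 454 to 746 CPM in the others. Each genotype held 2 of the 4 libraries. Sex, the place of the columns in the table and heat shock genes moved together here, and their part in these values was not tested. In the PE2 experiment *Ddx3y* reads were seen in wild-type aorta 4 alone (87.2 CPM), which the labels give as male and which had the lowest *Fos*, *Fosb*, *Fosl2* and *Atf3* of its group.

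The spread of the members among libraries of one genotype was set beside that of genes of like level. The biological coefficient of variation estimated by edgeR was 58.6% for *Fos*, 57.9% for *Atf3* and 50.6% for *Fosb* in the HDR experiment, and 32.0 to 38.6% for *Fosl2*, *Jun*, *Junb* and *Jund*. Genes within 2-fold of the level of *Fos* had a median of 16.8%, and 99.6% of those genes varied less, with 94.0% for *Fosl2*, the lowest of the 7 HDR members. In the PE2 experiment *Atf3* (68.8%) and *Fos* (64.5%) again varied most among members above 1 CPM, while *Fosl2* (24.1%) and *Jund* (24.3%) varied least. Of genes within 2-fold of their level there, 73.5% varied less than *Fosl1*, 74.4% less than *Jund*, 78.5% less than *Fosl2* and 98.2% less than *Atf3*. *Peg/peg* aorta 3 deviated from its group mean by -2.39 log2 units in *Atf3* and -1.52 in *Fos*. PE2 wild-type aorta 4 deviated by -1.53 in *Fos*.

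Whether the members varied together was asked within genotypes, a measure the genotype contrast does not use. Pearson's r between *Fos* and each other member was taken over deviations of log2(CPM + 1) from the genotype mean, with an exact two-sided permutation test within genotypes and Benjamini-Hochberg adjustment over 14 relations. In the HDR experiment *Fos* went with *Fosb* (r = 0.88, rho = 0.76, exact p = 0.00319, adjusted p = 0.0243, n = 10) and with *Junb* (r = 0.86, rho = 0.87, exact p = 0.00347, adjusted p = 0.0243, n = 10). The other 5 relations there had r from 0.35 (*Fosl2*) to 0.72 (*Jund*) and did not pass the adjustment. Without wild-type and *sg/sg* aortae 5, the libraries farthest from the median of *Fos*, r was 0.70 for *Fosb* and 0.79 for *Junb* and neither passed (adjusted exact permutation p = 0.43, n = 8). By Spearman's rho 0 relations passed (adjusted exact permutation p = 0.109 for *Fosb* and 0.0807 for *Junb*). The permutation treated libraries of one genotype as exchangeable, although those with and without *Ddx3y* reads differed in *Jun*, *Jund* and *Atf3*. The p-values take no account of that difference. The share of all genes that would pass with *Fos* was not computed.

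In the PE2 experiment 0 of 7 relations passed the exact permutation test after adjustment, 2 of them with an unadjusted p under 0.05. The strongest was again *Fosb* (r = 0.88, rho = 0.83, exact p = 0.0139, adjusted p = 0.0648, n = 8), followed by *Atf3* (r = 0.75, rho = 0.55, exact p = 0.0486, adjusted p = 0.0972, n = 8). *Junb* had r = -0.37 (rho = 0.00, exact p = 0.359, adjusted p = 0.402, n = 8), with *peg/peg* aorta 3 low in *Fos* and high in *Junb*. Whether r differed between the experiments was not tested.

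Over all 18 libraries, and as a description, the 21 pairs of the 7 members that passed the filter in both experiments had r from -0.29 to 0.93 with a median of 0.50, and 19 pairs were positive. The highest values were *Jun* with *Atf3* (0.93), *Jun* with *Jund* (0.87) and *Fos* with *Fosb* (0.87), and the lowest was *Junb* with *Atf3* (-0.29). The points share depth and composition of each library. The genes outside the family whose deviations were most like the members, by mean r over the 7 members among 13880 genes of at least 1 CPM, were *Zpr1* (0.66), *Trmt2a* (0.66), *Rtl8a* (0.65), *Ndufaf8* (0.65), *4930579P08Rik* (0.64), *Dph3* (0.64), *Cdkn2aip* (0.64) and *E130006D01Rik* (0.63). Their r was 0.79 to 0.96 with *Jund* and 0.02 to 0.35 with *Junb*.

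**Figure D4:**
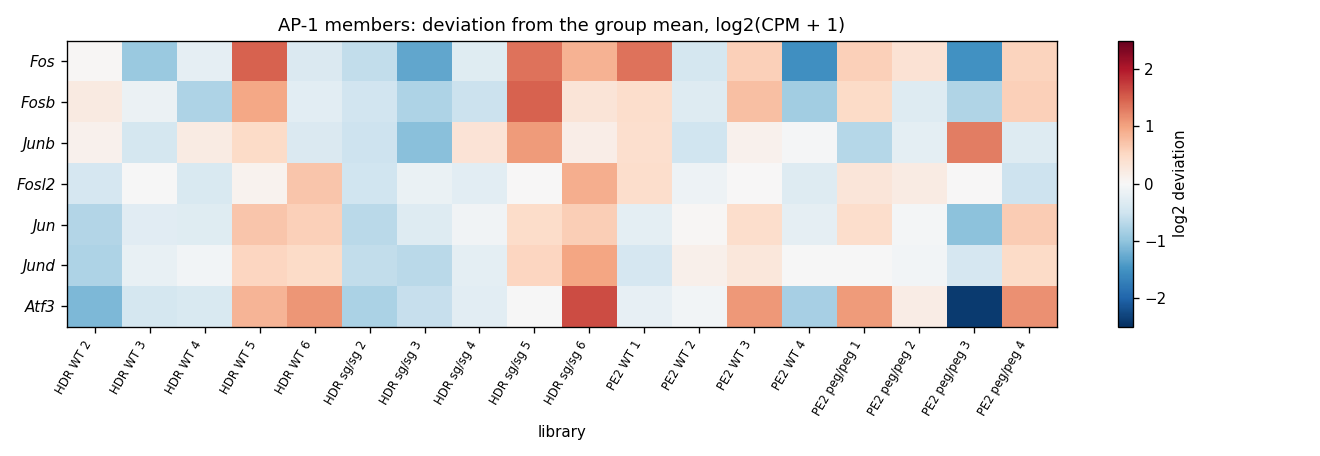
Deviation of log2(CPM + 1) from the mean of the library's own group (colour scale, red higher and blue lower) for 7 members (rows) in 18 libraries (columns). HDR libraries 5 and 6 are red in most rows, and *peg/peg* library 3 is blue in *Fos*, *Jun* and *Atf3* and red in *Junb*.

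The wild-type aortae of the 2 experiments were set side by side as a description, since the same wild-type libraries entered the genotype contrasts the members were chosen from. Scaled over all 18 libraries, *Jund* was higher in PE2 than in HDR wild-type aortae, at 139 ± 31.0 (SD, n = 4) against 61.6 ± 21.6 CPM (n = 5), a log2 difference of 1.17 (SE 0.34). *Fosl2* was lower, at 48.8 ± 11.3 against 94.3 ± 31.8 CPM (log2 difference -0.95, SE 0.29). *Fosl1* was at 0.939 ± 0.964 against 0.190 ± 0.130 CPM (log2 difference 2.29, SE 0.67). It had 0 to 7 counts per HDR library and passed the filter on low counts through the PE2 libraries, and without PE2 wild-type aorta 1, which held 95 of the 152 counts, it did not pass. The log2 differences were -1.39 (SE 0.68) for *Fos*, -1.06 (SE 0.53) for *Fosb*, -1.45 (SE 0.70) for *Atf3*, -0.50 (SE 0.42) for *Junb* and -0.14 (SE 0.36) for *Jun*. EdgeR called 3 of 8 members (*Jund*, *Fosl2* and *Fosl1*), beside 55.7% of 18094 genes, and DESeq2 called *Fosb* as well, 4 in all. Where at least 10 counts were required in every library, *Fosl2* and *Jund*, 2 of 7, were called. Nothing is read from these counts. Age, strain label (the methods give the same founder strains for both lines), sequencing run and depth all differed between the experiments and cannot be told apart. The share of males differed too, with 2 of 5 HDR and 1 of 4 PE2 wild-type mice.

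The difference between the 2 genotype effects was fitted over all 18 libraries. EdgeR called 0 of 8 members, beside 0% of 18094 genes, and DESeq2 called 0 members, beside 0.0477% of 25140 genes. Without adjustment 2 members, *Fosl2* and *Atf3*, had an edgeR p under 0.05, beside 5.13% of all genes. The members were chosen from the same contrasts, so nothing is read from these counts. The difference was 1.06 on the log2 scale for *Fosl2* (SE 0.40) and 2.52 for *Atf3* (SE 0.97), and for *Fos* it was 1.27 (SE 0.92) and for *Fosb* 1.00 (SE 0.73).

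Other genes of the same response were counted from lists. These lists were chosen with earlier results of these data known, so their counts are descriptions and nothing is read from them. Of 40 other immediate early genes tested in the PE2 experiment 36 had positive and 4 negative log2 differences, with a median of 0.71 beside 0.01 over all genes. An unadjusted edgeR p under 0.05 was seen for 17 (all higher), beside 4.3% of all genes, and 0 were called. The 4 with the smallest p were *Cebpd* (0.94, SE 0.15), *Sik1* (1.12, SE 0.21), *Ptgs2*, the inducible cyclooxygenase (2.28, SE 0.44), and *Btg2* (1.219, SE 0.24). DESeq2 called these 4, beside 0.189% of 17479 genes. Their sum over the list was 6663, 5769, 1502 and 4526 CPM in *peg/peg* aortae 1 to 4 and 1491 to 3209 CPM in wild types, so that *peg/peg* aorta 3 again lay within the wild-type range. In the HDR experiment 19 of 39 were positive and 20 negative. There 1, *Zfp36* (0.38, SE 0.17), had an unadjusted edgeR p under 0.05, beside 1.98% of all genes, and 0 were called.

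The partners, regulators and targets of AP-1 differed less. Among 20 bZIP relatives tested in PE2, 17 were positive with a median log2 difference of 0.17, and *Maff* (0.49, SE 0.16), *Nfe2l2* (0.30, SE 0.11) and *Atf4* (0.25, SE 0.09) had an unadjusted edgeR p under 0.05, with 0 called by edgeR or DESeq2. Of 25 upstream kinases and promoter factors 12 were positive and 13 negative, the smallest p being that of *Srf*, the factor that binds CArG boxes (0.38, SE 0.18), and 0 had an unadjusted p under 0.05. Of 13 AP-1 target genes, among them the proteases *Mmp9* (1.11, SE 0.53) and *Plau* (1.25, SE 0.60), 9 were positive and 0 had an unadjusted p under 0.05. In HDR aortae the same lists held 19, 24 and 12 tested genes, and 0 had an unadjusted p under 0.05 or were called by either tool. Of all genes, 4.3% in PE2 and 1.98% in HDR had an unadjusted edgeR p under 0.05.

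Beside these values, fat markers were lower in *peg/peg* aortae in 6 of 6 genes and fibroblast markers higher in 4 of 4, with 0 called and 0 at an unadjusted edgeR p under 0.05. Endothelial markers were lower in 4 of 4, with a median log2 difference of -0.055. Cardiac muscle markers had positive log2 differences in 3 of 3 genes tested, *Tnnt2* (5.64, SE 1.57), *Myl7* (3.87, SE 1.40) and *Myh6* (3.73, SE 1.25), all with an unadjusted edgeR p under 0.05 and 0 called, while *Nppa* was at 0 in 4 of the 8 PE2 libraries. Summed, they were at 5.96, 82.3, 522 and 30.3 CPM in *peg/peg* aortae 1 to 4 and at 2.42 to 6.42 CPM in PE2 wild types, so *peg/peg* aortae 2, 3 and 4 were above every wild type. In the HDR experiment *Tnnt2* (-2.15, SE 0.98) and *Myh6* (-2.18, SE 0.98) were the 2 tested, with an unadjusted edgeR p under 0.05 and 0 called, and wild-type aorta 3 held the highest sum (100.004 CPM). Fat markers were lower in *sg/sg* aortae in 6 of 6 genes too, with a median log2 difference of -0.54, against -0.65 in PE2. Of these HDR fat markers *Lep* had an unadjusted edgeR p under 0.05 and 0 were called. HDR fibroblast markers were lower in 3 of 4 and endothelial markers higher in 4 of 4. The summed fat markers were 118 to 2425 CPM in *peg/peg* and 695 to 3372 CPM in PE2 wild-type aortae, and the summed fibroblast markers 5439 to 10295 and 4912 to 8222 CPM. Of all genes, 4.3% in PE2 and 1.98% in HDR had an unadjusted edgeR p under 0.05. The part of these cells in the AP-1 values was not tested.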

How the data were processed

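Polyadenylated RNA of mouse aortae was sequenced by the authors, who aligned the reads with STAR 2.7.0f to GRCm38 and counted genes with featureCounts (Subread 1.6.4). They deposited raw counts per gene symbol and a normalized signal (counts over DESeq2 1.22.1 size factors), used here only as a check. The number of library columns left unused was 0. The labels and the study's methods differ on the library kit, the read length and the strain, since the labels give each experiment its own strain and the methods give both edits the same founder strains and crosses to C57BL/6J.

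The 8 members and all gene lists were chosen with earlier results of these data known. EdgeR 4.0.16 (R 4.3.3; TMM, filterByExpr, glmQLFit, glmQLFTest) was fitted to the counts of each experiment over all genes, and over all 18 libraries for contrasts between experiments, with Benjamini-Hochberg adjusted p under 0.05 as threshold. DESeq2 1.42.0 (Wald test) and limma 3.58.1 (voom) were alternatives. SE of an edgeR log2 fold change is its size divided by the root of the F statistic. No 2 libraries of a group were duplicates (lowest chi-square per degree of freedom 17.2). Labels give each library as a separate mouse aorta. Correlations, levels per length (Gencode M21, 1 release before the authors' annotation) and promoter motifs were computed with scipy 1.17.1 and numpy 2.4.6 under Python 3.11.15. Scripts were tested on simulated data. Named genes were the members, *Tspan2*, up to 4 genes per list by smallest unadjusted p, and the 8 genes most like the members.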

Additional observations from a re-analysis of the deposited data

Results flagged for a closer look

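In 32 sets of libraries (8 members in 4 groups), 5 held a library whose gap to the next exceeded Dixon's critical value. Chance gives about 5% for independent sets of normally distributed values. These sets share libraries and were taken on linear CPM, so nothing is read from the count. *Fos* was at 132 CPM in HDR wild-type aorta 5, with the next at 47.4 CPM. *Atf3* was at 72.7 CPM in *sg/sg* aorta 6, with the next at 22.6 CPM. *Fosl2* was at 157 CPM in *sg/sg* aorta 6, with the next at 84.1 CPM. *Fosl1* was at 2.42 CPM in PE2 wild-type aorta 1, with the next at 0.601 CPM. *Junb* was at 103 CPM in *peg/peg* aorta 3, with the next at 35.3 CPM.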

How the results depend on the processing

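The count of HDR members called was 0 under all 17 alternatives, and the interaction count was 0 under all 24. In PE2 aortae the edgeR and limma-voom counts were 0 throughout, with sex as a covariate and in females alone too. DESeq2 called 1 (*Fosl2*). Added after the data were seen, DESeq2 called 2 members without wild-type replicate 1 (*Fos*, *Fosl2*), 2 without wild-type replicate 3 (*Fosb*, *Atf3*), 4 without *peg/peg* replicate 3, 1 without *peg/peg* replicate 4 and 0 without any of the other 4 libraries. No share of all genes is set beside these counts, so nothing is read from them. The cause was not tested.

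With the replicate number as a block, 0 PE2 members were called. Same-numbered PE2 libraries had r from -0.23 to -0.02 and different-numbered ones from -0.32 to 0.43. The first range lies within the second, so whether the numbers pair PE2 libraries cannot be told from them. No paired analysis was possible by label number in HDR aortae because the columns carry other numbers. With the column number as a replicate block, added after the data were seen, 0 HDR members were called and *Fos* was at 0.56. Same-numbered HDR columns had r from -0.17 to 0.64 and different-numbered ones from -0.65 to 0.59. These ranges overlap, so whether the column numbers pair HDR libraries cannot be told from them.

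Between wild types DESeq2 called 4, adding *Fosb*, beside 45.5% of 25140 genes. With 1 library left out 2 to 5 members were called, 5 without PE2 wild-type replicate 3, which added *Fosb* and *Atf3*. No share of all genes is set beside the counts with 1 library left out, so nothing is read from them. The *Jun* difference between wild types ran from -0.40 to 0.061, changing sign without HDR wild-type replicate 5 (0.061) and 6 (0.014). The count of HDR correlations of *Fos* called, 2, was 0 by Spearman's rho, 0 without the 2 farthest libraries and 0 to 3 with 1 library left out. It was 0 without wild-type replicate 5 or 6 or *sg/sg* replicate 2, 3 or 5, and 1 without wild-type replicate 3 or *sg/sg* replicate 4 or 6. In PE2 it was 1 with deviations from the experiment mean (*Fosb*), and 0 to 3 with 1 library left out, 3 without wild-type replicate 1 and 1 without *peg/peg* replicate 4. Levels per length moved by over 1 SD for 32 of 32 values with the coding length and for 8 with the longest transcript.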

Other observations

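Response genes outside AP-1 that tissue handling and hormones are known to induce were counted as well. Of 9 glucocorticoid response genes in the PE2 experiment 8 had positive log2 differences, and *Tsc22d3* (1.55, SE 0.30), *Depp1* (1.24, SE 0.27) and *Per1*, a clock gene (1.499, SE 0.38), had an unadjusted edgeR p under 0.05. EdgeR called 0 of them and DESeq2 called *Tsc22d3* and *Depp1*. Of 7 heat shock genes 7 were positive, *Hspa1b* (1.85, SE 0.43) and *Hspa1a* (2.04, SE 0.58) had an unadjusted edgeR p under 0.05, edgeR called 0, and DESeq2 called *Hspa1b*. In the HDR experiment 0 genes of either list had an unadjusted p under 0.05, and 0 were called by either tool. Of all genes, 4.3% in PE2 and 1.98% in HDR had an unadjusted edgeR p under 0.05, and DESeq2 called 0.189% in PE2. Both lists were chosen with earlier results of these data known, so nothing is read from their counts.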
